A study of Mus musculus with 80 samples.

Results

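The genes described here encode the carnitine acyltransferases, namely Cpt1a, Cpt1b, Cpt1c, Cpt2 and Crat, which were taken by their symbols and are 5 of the 32764 gene symbols counted. Poly(A) RNA of inguinal white adipose tissue (iWAT), interscapular brown adipose tissue (BAT), liver and muscle was sequenced in 80 libraries, with 5 libraries for each of 4 genotypes in each of the 4 tissues. The genotypes were wildtype (WT), FGF21 KO without the hormone FGF21, UCP1 KO without the uncoupling protein of brown fat, and dKO without both, which the sample labels spell UCP1/FGF12 double KO. All groups were homozygous male mice on a C57BL/6J background, raised at 30 °C, then moved to room temperature and a high-fat diet for 3 weeks from an age of 10 to 12 weeks. WT mice received the same diet and temperatures as the knockouts. The labels do not say which libraries came from the same mouse or how replicates were prepared, so p-values measure only the spread between these libraries.

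Long-chain fatty acids cross into mitochondria as carnitine esters. Carnitine palmitoyltransferase 1, in the outer membrane, forms the acylcarnitine and is inhibited by malonyl-CoA. Cpt1a encodes the liver form, Cpt1b the muscle form, which is also the form of brown fat and is more sensitive to malonyl-CoA, and Cpt1c a form of neurons that sits in the endoplasmic reticulum and has little activity. The translocase Slc25a20 carries the ester across the inner membrane, Cpt2 turns it back into acyl-CoA in the matrix, and Crat, carnitine acetyltransferase, exchanges short acyl groups such as acetyl between CoA and carnitine.

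On GRCm38 (GENCODE gene models), Cpt1a (ENSMUSG00000024900.5) lies on the plus strand at chr19:3322334-3385733. The other members are on the minus strand, Cpt1b (ENSMUSG00000078937.8) at chr15:89416405-89425863, Cpt1c (ENSMUSG00000007783.10) at chr7:44959372-44974851, Cpt2 (ENSMUSG00000028607.16) at chr4:107903981-107923610 and Crat (ENSMUSG00000026853.15) at chr2:30400471-30415813. The longest run of bases shared by transcripts of a pair of members was 23 bases, between Cpt1b and Cpt1c. All 3372 exonic bases of Cpt1b lie within the span of the read-through gene Gm44502, which joins it to its upstream neighbour Chkb and has no row of its own in the count files. Exons of Cpt1c and Crat overlap the spans of the antisense genes 6530437J22Rik and Gm16323 over 682 and 813 bases, and Crat overlaps the end of Dolpp1 over 59 bases. Since no source used here states whether counting was by strand, reads of such overlapping genes may not have been told apart.

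A promoter window around the RefSeq start was given for 3 of the 5 members, Cpt1a, Cpt1c and Cpt2. They are shown to set the promoter of the liver isoform, which rose in BAT of UCP1 KO, beside those of a member expressed in all 4 tissues (Cpt2) and of the member with the lowest levels (Cpt1c). Each line holds the 150 bases from 175 to 26 bases before the start on the gene's own strand, from chr19:3323126-3323275 (plus), chr7:44974877-44975026 (minus) and chr4:107923615-107923764 (minus) of GRCm38. Capitals mark the GC box GGGCGG and the nuclear receptor half-site AGGTCA, on either strand.
Cpt1a: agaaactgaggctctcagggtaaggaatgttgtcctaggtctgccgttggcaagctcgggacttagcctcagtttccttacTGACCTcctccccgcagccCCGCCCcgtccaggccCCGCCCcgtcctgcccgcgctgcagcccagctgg
Cpt1c: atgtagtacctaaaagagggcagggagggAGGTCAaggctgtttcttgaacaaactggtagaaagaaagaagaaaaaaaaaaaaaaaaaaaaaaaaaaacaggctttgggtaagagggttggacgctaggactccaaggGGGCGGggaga
Cpt2: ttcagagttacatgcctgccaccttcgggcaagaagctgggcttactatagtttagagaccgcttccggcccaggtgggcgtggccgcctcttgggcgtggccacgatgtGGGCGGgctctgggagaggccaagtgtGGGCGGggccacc
Within the full RefSeq windows, the GC box occurred 3 times for Cpt1a, 3 times for Cpt2 and once for Cpt1c, and 35.7% of all 32851 windows held at least one. The half-site occurred once each for Cpt1a and Cpt1c and 0 times for Cpt2, against 16.3% of all windows. The CCAAT box (CCAAT) occurred once each for Cpt1a and Cpt1c, against 37.4% of all windows, and the TATA box (TATAAA) in none of the 3, against 13.6%. These are matches of letters on both strands, with overlapping matches counted, and not sites of binding.

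Libraries held 28691377 to 50380696 counted reads, with a median of 38022853, and all 5 members passed the low-count filter in each of the 4 tissues. Levels are given as CPM, read counts relative to a library size that was scaled by TMM (trimmed mean of M-values) factors within a tissue. Marker genes fitted the labelled tissues, with summed levels of 63179 to 100351 CPM for 5 hepatocyte genes in liver, 117548 to 152911 CPM for 10 skeletal muscle genes in muscle and 4406 to 23468 CPM for 5 adipocyte genes in iWAT, and 2275 to 5134 CPM for 6 brown or beige adipocyte genes in BAT. Fgf21 had at most 3 counts in any FGF21 KO or dKO library of iWAT, BAT and liver. Ucp1 was lower in every UCP1 KO and dKO library of BAT (530 to 1883 CPM) than in every WT library (3205 to 7555 CPM), whereas in iWAT it was higher in the UCP1 KO libraries (102 to 735 CPM) than in WT (2.64 to 16.7 CPM). Counts over the whole gene do not show the deleted part, so Ucp1 does not check the label in iWAT, and groups are named here by their labels. In iWAT, 9 libraries had a lymph node score (mean log2 of CPM plus 0.1 over 8 B and T cell genes) above 4, of which 4 were FGF21 KO, 2 WT, 2 dKO and 1 UCP1 KO.

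WT mice used the CPT1 isoforms in a tissue-specific way. On the per-length scale, CPM per kilobase of exonic sequence with 1 scaling over all libraries, the level of Cpt1a was 89.9 ± 11.8 in liver, 9.95 ± 1.31 in iWAT, 3.39 ± 0.256 in BAT and 2.86 ± 0.422 in muscle (mean ± SD, n = 5). Cpt1b ran in another order, with a level of 392 ± 42.7 in BAT, 136 ± 14.2 in muscle, 4.67 ± 3.20 in iWAT and 2.07 ± 0.289 in liver. The Cpt1a levels of BAT and muscle overlapped between libraries, as did the Cpt1b levels of iWAT and liver, and all other tissue pairs of these isoforms were separate. Cpt1c was the lowest of the 3 isoforms in each tissue, at 1.17 ± 0.261 CPM per kilobase in iWAT, 0.530 ± 0.0882 in muscle, 0.368 ± 0.0331 in BAT and 0.121 ± 0.0407 in liver, where it rested on 9 to 23 reads per WT library.

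Downstream of CPT1, the matrix enzyme Cpt2 varied less. Its WT level was 274 ± 16.6 CPM per kilobase in BAT, 88.4 ± 7.30 in liver, 49.2 ± 6.93 in iWAT and 46.3 ± 5.08 in muscle, and only the last pair overlapped. Crat, which handles acetyl groups, was at 199.6 ± 15.4 CPM per kilobase in BAT, 132.5 ± 5.19 in muscle, 42.2 ± 6.93 in iWAT and 8.74 ± 1.76 in liver. BAT thus held the highest level of Cpt1b, Cpt2 and Crat, liver that of Cpt1a, and iWAT that of Cpt1c.

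**Figure D1:**
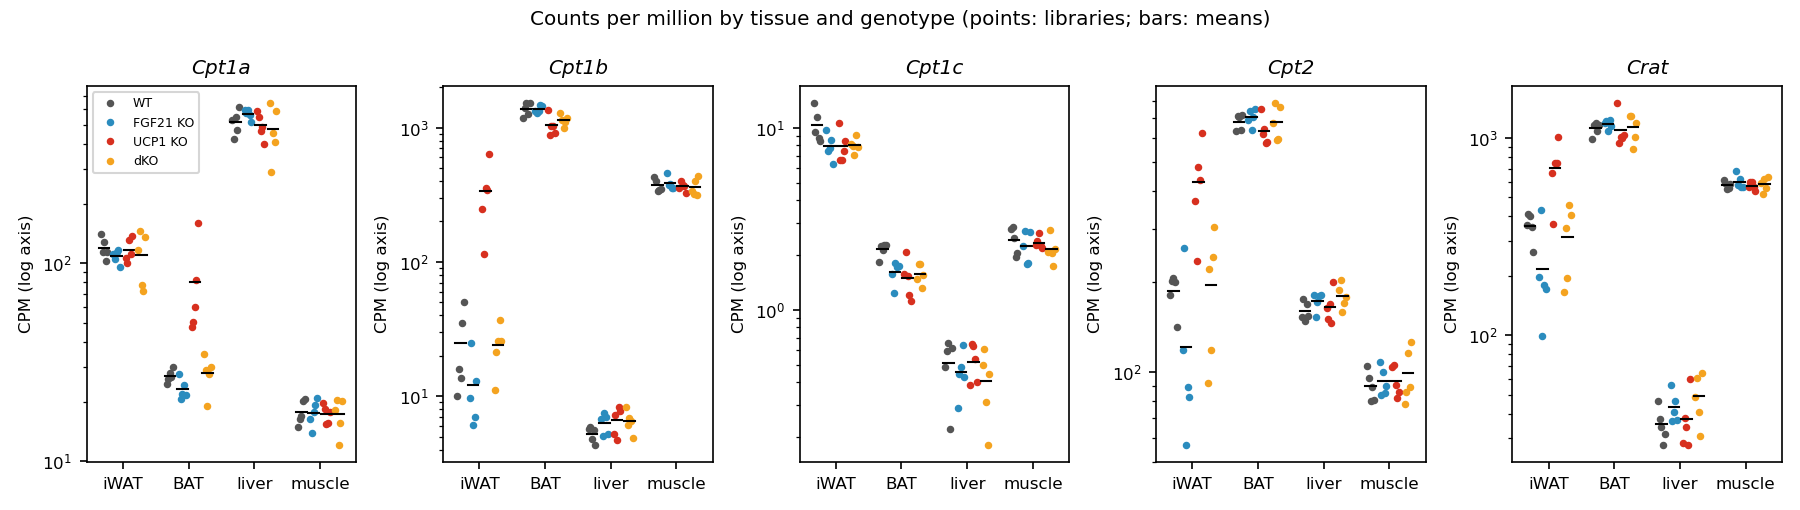
Levels of the 5 carnitine acyltransferase genes in each of the 80 libraries, by tissue and genotype (CPM on a log axis, 1 point per library, with bars at the group means). Cpt1b of the 5 UCP1 KO libraries of iWAT lay between 115 and 634 CPM, above the other 15 libraries of iWAT (6.10 to 50.4 CPM), and Cpt1a of the UCP1 KO libraries of BAT lay above the other BAT libraries.

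Tested between WT tissues with edgeR, all 5 members differed between BAT and iWAT, between BAT and liver, between iWAT and liver and between muscle and liver. In these comparisons 60.7%, 67.3%, 74.9% and 73.8% of all genes were called, so such a count is not particular to these genes. Between iWAT and muscle 4 of 5 members differed (74.4% of all genes), and Cpt2 did not pass (log2 fold change 0.06, SE 0.10, adjusted p = 0.588). Between BAT and muscle 3 of 5 members differed (64.1% of all genes), with Cpt1a (0.25, SE 0.12, adjusted p = 0.0586) and Cpt1c (-0.52, SE 0.20, adjusted p = 0.0283) not past the threshold of 0.01. Without replicate 4 of the WT liver libraries, whose spread enters the same fit, the adjusted p of Cpt1c in that comparison was 0.00579, and DESeq2 called it over all libraries (-0.54, adjusted p = 0.00871).

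The differences in level between tissues were wide. Cpt1b was 85.6-fold higher in BAT than in iWAT (log2 fold change 6.42, SE 0.38, adjusted p = 1.92e-11), 2.90-fold higher in BAT than in muscle (1.54, SE 0.31, adjusted p = 0.000164) and 65.6-fold higher in muscle than in liver (6.04, SE 0.38, adjusted p = 1.05e-11). Cpt1a was 26.4-fold lower in BAT than in liver (log2 fold change -4.72, SE 0.13, adjusted p = 6.99e-17) and 2.87-fold lower in BAT than in iWAT (-1.52, SE 0.12, adjusted p = 9.57e-10). Crat was 22.9-fold higher in BAT than in liver (4.52, SE 0.15, adjusted p = 7.50e-16). Cpt2 was 1.83-fold lower in iWAT than in liver, a difference that turned to a log2 fold change of 0.21 when libraries were scaled by their totals alone, a scaling under which the median gene was 1.13 higher in iWAT on the log2 scale. Under the TMM scaling the median gene differed by -0.10 between BAT and iWAT and by 0.23 between iWAT and muscle.

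As a share of the 3 isoforms per exonic base, Cpt1b made up 99.0% ± 0.0626 of CPT1 message in WT BAT and 97.5% in WT muscle, and Cpt1a 97.6% ± 0.589 in WT liver. WT iWAT was mixed, with 64.3% ± 13.2 Cpt1a, 28.1% ± 15.3 Cpt1b and 7.61% ± 2.17 Cpt1c (SD, n = 5). Its libraries held 12.5%, 22.1%, 17.6%, 40.8% and 47.6% Cpt1b. The last of these, replicates 4 and 5, also had the most skeletal muscle genes (940 and 9915 CPM summed, against 24.8 to 84.4 CPM) and lymph node scores of 6.39 and 6.81 (against 0.49 to 1.74), whose part in the spread was not tested.

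**Figure D2:**
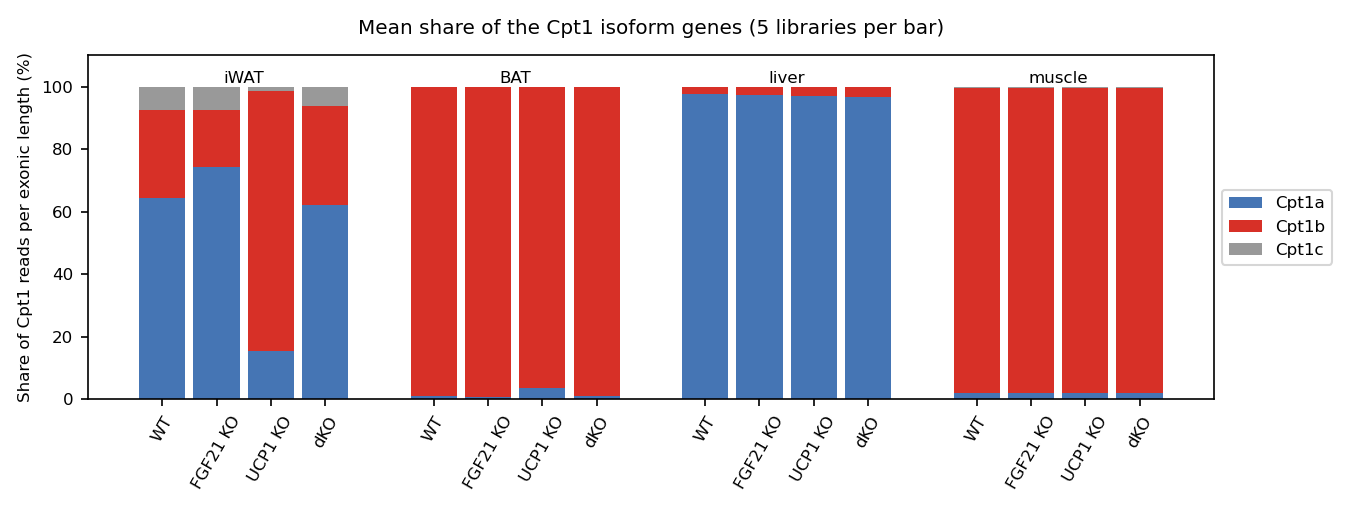
Mean shares of Cpt1a, Cpt1b and Cpt1c by tissue and genotype (percent of the sum of their counts per exonic base, stacked bars from 0 to 100, each the mean of 5 libraries, without error bars). Cpt1b takes 83.0% in UCP1 KO iWAT and 18.2% to 31.6% in the other genotypes of iWAT, while BAT and muscle are almost all Cpt1b and liver is almost all Cpt1a in every genotype.

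In iWAT, the muscle isoform was higher in UCP1 KO and the liver isoform was not detectably changed. Cpt1b was at 9.95, 15.96, 13.6, 34.9 and 50.4 CPM in the WT libraries and at 248, 115, 355, 340 and 634 CPM in the UCP1 KO libraries. In dKO it was at 11.1, 21.2, 25.9, 36.8 and 25.9 CPM, and in FGF21 KO at 9.66, 25.0, 6.10, 6.96 and 13.0 CPM. Each UCP1 KO library was above each library of the other genotypes, and the other 3 genotypes overlapped one another. Cpt1b was 13.5-fold higher in UCP1 KO than in WT (log2 fold change 3.76, SE 0.56, edgeR adjusted p = 0.00213) and 14.0-fold higher than in dKO (3.81, SE 0.56, adjusted p = 0.00257), comparisons that share the UCP1 KO libraries. It was the only 1 of the 5 members called in either comparison, where 0.61% and 0.466% of all genes were called. DESeq2 also called Cpt1b alone in both, where it called 3.43% and 3.08% of all genes. With edgeR 4 members, Cpt1b, Cpt1c, Cpt2 and Crat, were at an unadjusted p under 0.05 against WT (14.7% of all genes were). Against dKO 3 members, Cpt1b, Cpt2 and Crat, were (14.2% of all genes).

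The edgeR call of Cpt1b rests on a threshold of 0.01 that several single libraries moved. Without WT replicate 1, 2 or 3 the adjusted p against WT was 0.0103, 0.0128 and 0.0123, at log2 fold changes of 3.56, 3.63 and 3.60. Without dKO replicate 1, 2 or 3 that against dKO was 0.0112, 0.0118 and 0.0105, at 3.62, 3.76 and 3.83. A fit of only the 2 genotypes compared gave Cpt1b log2 fold changes of 3.76 against WT and 3.78 against dKO, beside 3.76 and 3.81 over all genotypes, at adjusted p = 0.0306 and 0.0497. These fits called 1 and 0 genes in all with edgeR, with 2666 and 2072 at an unadjusted p under 0.05.

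The other genotype comparisons of iWAT called 0 of the 5 members with edgeR. For dKO against FGF21 KO (0.0115% of all genes called), Cpt1b differed by 0.99 on the log2 scale (SE 0.51, adjusted p = 0.542), with 0 members at an unadjusted p under 0.05 (8.62% of all genes were) and 0 by DESeq2. For FGF21 KO against WT (0.00575% of all genes), Cpt1b differed by -1.04 (SE 0.51, adjusted p = 0.290), 1 member, Cpt1c, was at an unadjusted p under 0.05 (17.4% of all genes were), and DESeq2 called 0. For dKO against WT (0.0173% of all genes called), 1 member, again Cpt1c, was at an unadjusted p under 0.05 (5.91% of all genes were), and DESeq2 called 0. The interaction, the effect of UCP1 loss with FGF21 present minus that with FGF21 absent, was 2.77 for Cpt1b (SE 0.72, adjusted p = 0.203), in a test that called 0.0% of all genes. Here too 1 member, Cpt1b, was at an unadjusted p under 0.05 (9.98% of all genes were) and DESeq2 called 0, so a dependence of the Cpt1b rise on FGF21 was not called in the interaction test itself. FGF21 KO replicates 1, 3, 4 and 5 had lymph node scores of 6.91, 7.27, 6.90 and 6.99, and replicate 2 had 0.44. They held 9.66, 6.10, 6.96 and 13.0 CPM of Cpt1b, beside 25.0 CPM in replicate 2. The part of lymph node content in the comparisons that use FGF21 KO was not tested further.

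No change of Cpt1a was detected beside it. The UCP1 KO libraries of iWAT held 107, 100.1, 131, 112 and 137 CPM of Cpt1a and the WT libraries 139.9, 115, 129, 103 and 114 CPM, with the groups overlapping in full. The difference was -0.03 on the log2 scale (SE 0.17, adjusted p = 0.960), with an interval of 2 SE from -0.37 to 0.30. Cpt1c was at 6.66 to 10.6 CPM in UCP1 KO and at 8.41 to 13.7 CPM in WT, a log2 difference of -0.38 (SE 0.16, adjusted p = 0.263) that did not pass.

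The isoform mix of iWAT thus differed by genotype. Cpt1b made up 83.0% ± 7.62 of CPT1 message there, against 28.1% ± 15.3 in WT, 31.6% ± 13.3 in dKO and 18.2% ± 9.51 in FGF21 KO, and Cpt1a made up 15.6% ± 6.95 in UCP1 KO. The log2 ratio of Cpt1b to Cpt1a ran from 1.38 to 3.39 in the UCP1 KO libraries, while it reached at most 0.00 in WT and 0.20 in dKO. The groups were separate, and the ratio was 3.86 higher than in WT and 3.56 higher than in dKO (two-sided exact permutation test, p = 0.00794 each, the smallest that 5 libraries against 5 allow, adjusted p = 0.0317 over 16 tests). Among libraries of a low lymph node score the ratio was 4.92 and 3.67 higher. There the exact permutation adjusted p was 0.0914 for each, since fewer libraries raise the smallest p. In bulk tissue, a change in RNA per cell cannot be told apart from a change in the number of cells of a type that holds it.

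Cpt2 and Crat were higher in the same libraries without passing the test. Cpt2 was at 372, 233, 483, 437 and 627 CPM in UCP1 KO and at 181, 202, 206, 199.6 and 142 CPM in WT, so that the groups did not overlap. Its log2 fold change was 1.21 (SE 0.38, adjusted p = 0.104), and 1.14 against dKO (SE 0.38, adjusted p = 0.132), where the groups overlapped. Crat was at 663, 365, 750.5, 748 and 1007 CPM in UCP1 KO and at 364, 414, 401, 354 and 265 CPM in WT, overlapping through UCP1 KO replicate 2. Its log2 fold change was 0.98 (SE 0.35, adjusted p = 0.174), and 1.16 against dKO (SE 0.36, adjusted p = 0.0970). Over the 20 libraries of iWAT, which differ in genotype and lymph node content, the log2 levels of Cpt2 and Crat ran together (r = 0.985) more closely than Cpt1b with Cpt2 (r = 0.845) or Cpt1a with Cpt2 (r = 0.255).

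**Figure D3:**
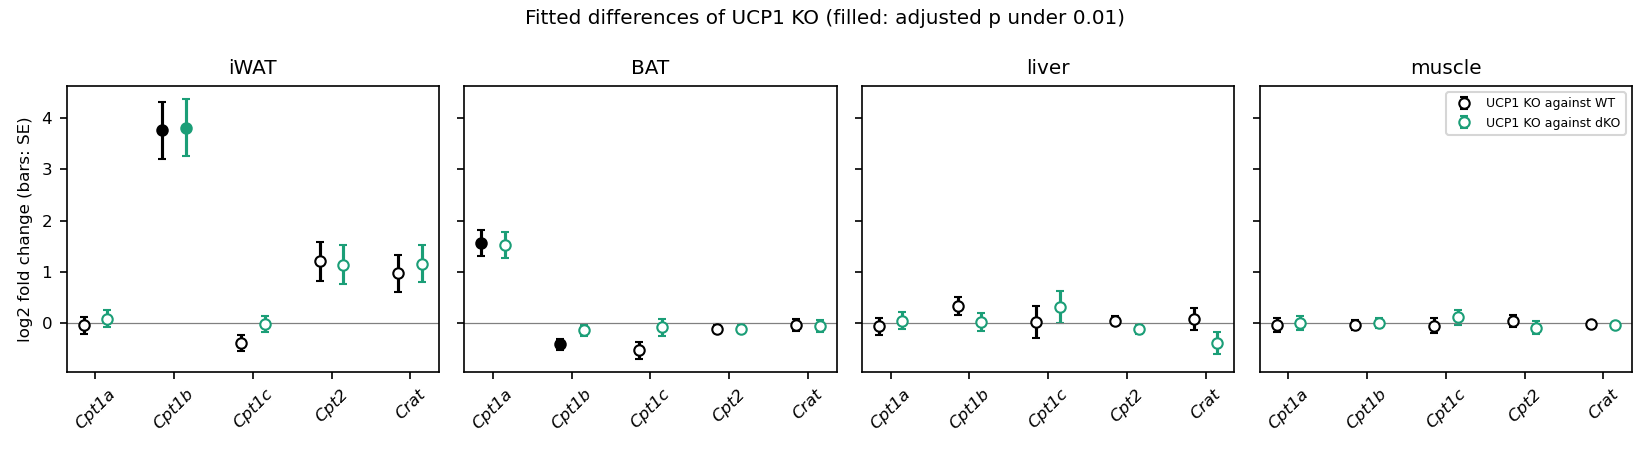
Log2 fold changes of the 5 genes in UCP1 KO against WT (black) and against dKO (green) in each tissue (edgeR, bars of 1 standard error, filled points for an adjusted p under 0.01). The filled points are Cpt1b in iWAT at 3.76 and 3.81, and, against WT alone, Cpt1a in BAT at 1.57 and Cpt1b in BAT at -0.41, with no filled point in liver or muscle.

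Lymph node content varied with Cpt2 and Crat in some libraries of iWAT. The FGF21 KO libraries with a score above 4 had 56.9 to 119 CPM of Cpt2, whereas replicate 2, the only FGF21 KO library below it, had 258 CPM. UCP1 KO replicate 2, the lowest UCP1 KO library in Cpt1b, Cpt2 and Crat, was also the only UCP1 KO library above that score. In WT the pattern was mixed, since replicate 4, with a score of 6.39, had 199.6 CPM of Cpt2, within the 181 to 206 CPM of the 3 low-score libraries, and replicate 5, with a score of 6.81, had 142 CPM. Among the 11 libraries at or under 4, 3 members were called for UCP1 KO against WT, namely Cpt1b (log2 fold change 4.88, SE 0.38, adjusted p = 0.000473), Cpt2 (1.27, SE 0.17, adjusted p = 0.00285) and Crat (0.99, SE 0.15, adjusted p = 0.00399), in a fit that called 3.73% of all genes. Against dKO the same libraries called 1 member, Cpt1b (0.944% of all genes). With the score as a covariate over all 20 libraries 1 member, Cpt1b, was called against WT (4.64% of all genes) and 3 against dKO (4.4% of all genes). The part of lymph node tissue in the spread of the other libraries was not tested further.

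Skeletal muscle, which is rich in Cpt1b, was present in some iWAT libraries. The summed level of 10 skeletal muscle genes reached 21658 CPM in UCP1 KO replicate 1, and it was 39.0 to 430 CPM in the other 4 UCP1 KO libraries, against 24.8 to 9915 CPM in WT. Relative to WT muscle, the muscle genes of UCP1 KO replicates 2, 3 and 4 were at 0.0144%, 0.0193% and 0.0148%, whereas Cpt1b of the same libraries was at 16.2%, 49.4% and 48.6%. Replicate 1 had 8.09% of the muscle genes and 35.3% of Cpt1b, and replicate 5 had 0.160% and 90.2%. The WT library with the most muscle genes, replicate 5, had 3.59% of them and 6.97% of Cpt1b. Without the 6 libraries of iWAT with a muscle score above 4, the log2 fold change of Cpt1b was 4.36 against WT and 3.28 against dKO, at adjusted p = 0.0120 and 0.0397, no longer under 0.01, in edgeR fits that called 0 genes in all, with 2817 and 1393 genes at an unadjusted p under 0.05 (DESeq2 was not run on these libraries). With the muscle score as a covariate over all iWAT libraries, Cpt1b stayed called with edgeR against WT and against dKO. That fit called 0.61% and 0.322% of all genes. The part of muscle tissue in the Cpt1b value of replicate 1 was not tested further. Genes of brown and beige adipocytes moved with Cpt1b, their summed level (6 genes, all detected in every library) reaching 401 to 2340 CPM in UCP1 KO libraries against 51.8 to 138 CPM for WT, 34.8 to 188 CPM for dKO and 14.4 to 111 CPM for FGF21 KO. Their part in the difference was not tested.

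Between the depots, the effects of UCP1 KO against WT differed for 2 of 5 members, Cpt1a and Cpt1b (7.48% of all genes called), and those of UCP1 KO against dKO for the same 2 members (1.64% of all genes called), in a fit of both depots chosen after seeing the data. DESeq2 called Cpt2 as well for UCP1 KO against WT (1.31, adjusted p = 0.00815). The share of all genes it called between the depots is not given here, and the shares above are those of edgeR. Within iWAT, DESeq2 called 3.43% of all genes for UCP1 KO against WT, beside 0.61% with edgeR. Set against WT BAT on 1 scale, Cpt1b in UCP1 KO iWAT reached 16.6% of the BAT mean (5.59% to 31.2% in single libraries), from 1.19% in WT iWAT. Cpt2 stood at 42.5% of WT BAT in UCP1 KO iWAT, from 17.9% in WT iWAT, and Crat at 42.6%, from 21.2%. Cpt1a, in contrast, was at 293% of the BAT level in UCP1 KO iWAT and at 294% in WT iWAT. These percentages depend on the scaling between tissues. In WT BAT against WT iWAT the median log2 fold change was -0.10 with TMM factors and -0.84 with library totals alone.

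Chkb, choline kinase beta, lies just upstream of Cpt1b and shares the read-through transcript. It rose less, by 0.79 on the log2 scale against WT (SE 0.13, adjusted p = 0.00391) and by 0.74 against dKO (SE 0.13, adjusted p = 0.00822) in iWAT.

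In BAT of UCP1 KO, Cpt1a was higher and Cpt1b lower than in WT. Cpt1a, the minor isoform there, was at 24.6, 25.9, 27.8, 26.7 and 29.9 CPM in WT and at 47.8, 50.5, 60.4, 82.1 and 160.1 CPM in UCP1 KO. It was at 34.6, 28.7, 19.0, 27.6 and 29.8 CPM in dKO and at 27.6, 20.6, 21.8, 24.3 and 21.6 CPM in FGF21 KO. Again each UCP1 KO library was above each library of the other genotypes. Cpt1a was 2.98-fold higher in UCP1 KO than in WT (log2 fold change 1.57, SE 0.25, edgeR adjusted p = 0.000117), and stayed called in the 20 fits that left out 1 library each, at 1.16 to 1.71. Against dKO the log2 fold change was 1.52 (SE 0.25, adjusted p = 0.0112), not under 0.01.

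Cpt1b, the major isoform of BAT, fell. It was at 1188, 1397, 1520, 1257 and 1511 CPM in WT and at 1343, 881, 1028, 1019 and 917 CPM in UCP1 KO, with 4 of the 5 UCP1 KO libraries below all WT libraries and replicate 1 among them. The dKO libraries, at 1274, 1137, 996, 1097 and 1182 CPM, overlapped both groups. In UCP1 KO against WT it fell by 0.41 on the log2 scale (SE 0.11, adjusted p = 0.00533), which is 1.32-fold. This small call was lost without UCP1 KO replicate 2, 3, 4 or 5 (adjusted p = 0.0163, 0.0112, 0.0124 and 0.0145) and without WT replicate 2, 3 or 5 (0.0133, 0.0191 and 0.0186), at log2 fold changes of -0.35, -0.40, -0.40, -0.36, -0.40, -0.36 and -0.37. In total 2 of 5 members were called in a comparison that called 25.2% of all genes.

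Scaling by library totals alone raised the median gene of BAT by 0.31 on the log2 scale in UCP1 KO against WT. Relative to that median, Cpt1a was 1.63 higher and Cpt1b lower by -0.43, while the unshifted value of Cpt1b was -0.12 (adjusted p = 0.317).

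The remaining BAT comparisons called 0 of the 5 members with edgeR. For UCP1 KO against dKO (0.0636% of all genes called), Cpt1a was the 1 member at an unadjusted p under 0.05 (12.9% of all genes were) and the 1 member called by DESeq2. Without UCP1 KO replicate 1, 2 or 5 it passed with edgeR as well, at adjusted p = 0.00184, 0.00385 and 0.00499 and log2 fold changes of 1.66, 1.65 and 1.11. For dKO against FGF21 KO (13.5% of all genes), Cpt1b differed by -0.27 (SE 0.11, adjusted p = 0.0623), being the 1 member of 5 at an unadjusted p under 0.05, where 6287 of 15729 genes were, with 0 called by DESeq2. For dKO against WT (21.1% of all genes called), Cpt1b differed by -0.27 (SE 0.11, adjusted p = 0.0489) and Cpt1c by -0.44 (SE 0.16, adjusted p = 0.0413), the 2 members at an unadjusted p under 0.05, where 46.2% of all genes were, with 0 called by DESeq2. For FGF21 KO against WT (0.0% of all genes), 1 member, Cpt1c, was at an unadjusted p under 0.05 (8.55% of all genes were) and DESeq2 called 0. The interaction (0.0% of all genes) was 1.30 for Cpt1a (SE 0.35, adjusted p = 0.758), with Cpt1a the 1 member at an unadjusted p under 0.05 (5.37% of all genes were) and 0 called by DESeq2.

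Cpt1b stayed the main isoform of BAT in all genotypes, at 96.5% ± 2.18 of CPT1 message in UCP1 KO (92.8% to 98.4%) against 99.0% ± 0.0626 in WT. The share of Cpt1a was 3.42% ± 2.19 in UCP1 KO, 0.861% ± 0.0562 in WT, 1.06% ± 0.133 in dKO and 0.742% ± 0.0971 in FGF21 KO. The log2 ratio of Cpt1b to Cpt1a was 5.99, 5.30, 5.27, 4.81 and 3.70 in the UCP1 KO libraries, between 6.74 and 6.95 in WT and between 6.38 and 6.89 in dKO. It was 1.83 lower than in WT and 1.53 lower than in dKO (exact permutation test, p = 0.00794 and adjusted p = 0.0317 for each). For dKO against FGF21 KO it differed by -0.52 (exact permutation p = 0.0159, adjusted p = 0.0508), and without FGF21 KO replicate 1 the adjusted p was 0.0423. Without FGF21 KO replicate 1 the difference of FGF21 KO from WT, 0.22 over all libraries (adjusted p = 0.148), had an exact permutation adjusted p of 0.0254. Leaving out any 1 WT replicate (1 to 5) moved the adjusted p against WT to 0.0508, and any 1 dKO replicate (1 to 5) moved that against dKO to 0.0508 or 0.0635, with the groups still separate.

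Marker genes of cell types varied with Cpt1a in BAT. In UCP1 KO replicates 1 to 5, Cpt1a of 47.8, 50.5, 60.4, 82.1 and 160.1 CPM stood beside summed adipocyte genes of 10697, 8832, 8445, 5946 and 4119 CPM, against 8919 to 10520 CPM in WT. The library with the most Cpt1a thus had the fewest adipocyte transcripts, and also the lowest brown or beige sum (2275 CPM). Macrophage genes were higher in UCP1 KO than in WT. The summed level of 5 such genes, a list added after the Cpt1a values were seen, ranged over 93.9 to 121 CPM in WT libraries and 90.7 to 174 CPM in FGF21 KO ones, against 143 to 223 CPM for dKO and 132 to 341 CPM for UCP1 KO. The library with the most Cpt1a, UCP1 KO replicate 5, had 275 CPM of them and replicate 2, with 50.5 CPM of Cpt1a, had 341 CPM. With a macrophage score as a covariate, the log2 fold change of Cpt1a against WT was 0.81 (SE 0.43, adjusted p = 0.311), and against dKO it was 1.26 (SE 0.26, adjusted p = 0.113). The same covariate ended the call of Cpt1b against WT, at -0.23 (SE 0.19, adjusted p = 0.536). That fit called 1.14% of all genes against WT, where the fit without the score called 25.2%. The part of adipocyte and macrophage content in the Cpt1a and Cpt1b differences was not tested further. Skeletal muscle genes also varied in BAT, from 26.7 to 117 CPM among WT libraries up to 4715 CPM among dKO and 8813 CPM among UCP1 KO libraries. With their score as a covariate Cpt1a differed by 1.77 (adjusted p = 3.46e-05) and Cpt1b by -0.34 (adjusted p = 0.0275).

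**Figure D4:**
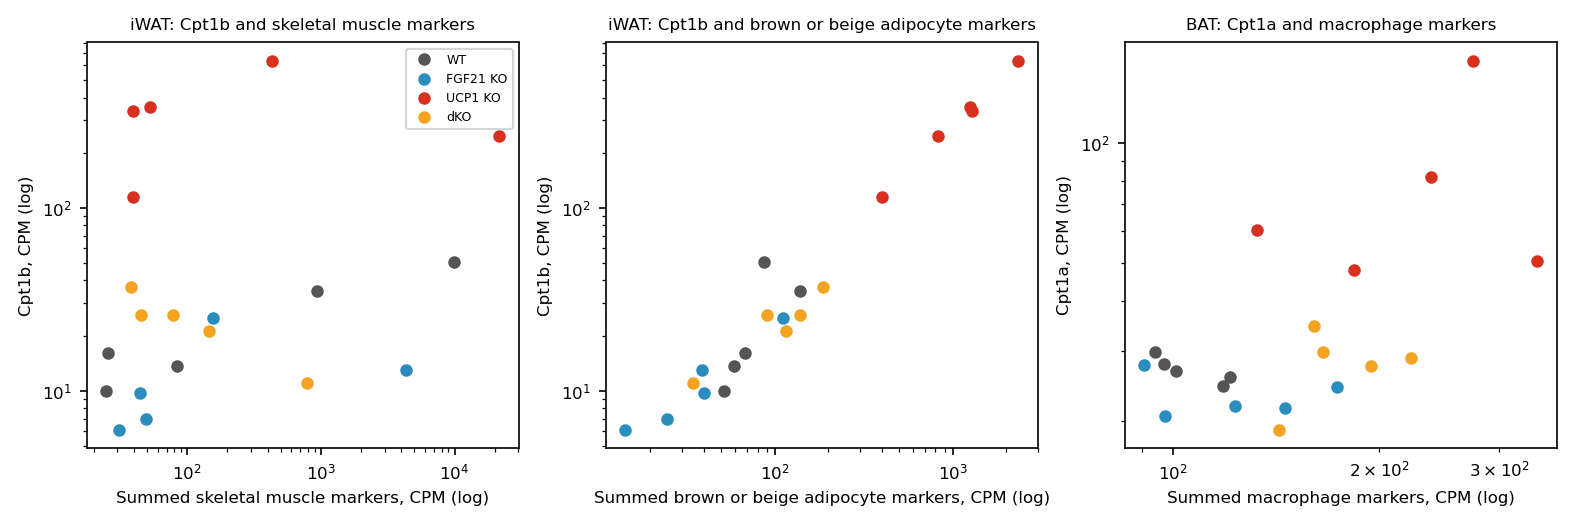
Cpt1b in iWAT against summed skeletal muscle genes and brown or beige adipocyte genes, and Cpt1a in BAT against summed macrophage genes (CPM on log axes, 1 point per library, coloured by genotype). In iWAT the UCP1 KO libraries lie at 115 to 634 CPM of Cpt1b and at 401 to 2340 CPM of brown or beige genes, and in BAT they lie at 47.8 to 160.1 CPM of Cpt1a and at 132 to 341 CPM of macrophage genes.

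Neither Cpt2 nor Crat passed in BAT. Cpt2 was at 579 to 755 CPM in UCP1 KO and 634 to 718 CPM in WT (log2 fold change -0.10, SE 0.09, adjusted p = 0.395), and Crat at 946 to 1503 CPM and 985 to 1191 CPM (-0.03, SE 0.12, adjusted p = 0.890). The intervals of 2 SE ran from -0.28 to 0.08 and from -0.27 to 0.22. Cpt1c, at 1.11 to 2.07 CPM in UCP1 KO and 1.83 to 2.28 CPM in WT, differed by -0.52 (SE 0.16, adjusted p = 0.0170), and without UCP1 KO replicate 2 by -0.66 (adjusted p = 0.00294).

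No member was called between genotypes in liver or muscle. In liver, edgeR called 0 of the 5 members for UCP1 KO against WT, UCP1 KO against dKO, dKO against FGF21 KO and FGF21 KO against WT, where 0.0694%, 0.00694%, 0.00694% and 0.229% of all genes were called. In muscle it called 0 of the 5 in the same comparisons, where 0.0265%, 0.0%, 0.0595% and 0.00662% of all genes were called. In each of these 8 comparisons 0 members were at an unadjusted p under 0.05 and 0 were called by DESeq2. Of all genes, 10.2%, 8.25%, 6.75% and 7.54% were at an unadjusted p under 0.05 in liver. In muscle 9.81%, 11.7%, 7.96% and 12.9% were. Leaving aside FGF21 KO against WT, DESeq2 called 0.777%, 0.0416% and 0.0764% of all genes in liver and 0.172%, 0.086% and 0.106% in muscle. For dKO against WT in liver, Crat was the 1 member at an unadjusted p under 0.05 (12.1% of all genes were, and 0.0416% were called), with 49.0 ± 13.8 CPM in dKO and 35.5 ± 7.12 CPM in WT (SD, n = 5), in groups that overlapped. Its log2 fold change was 0.47 (SE 0.21, edgeR adjusted p = 0.391). For dKO against WT in muscle 0 of the 5 were called by edgeR (0.0529% of all genes) or DESeq2, and 0 were at an unadjusted p under 0.05 (12.2% of all genes were).

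Liver Cpt1a, the main isoform there, had means of 519 ± 73.8 CPM in WT, 570 ± 31.3 in FGF21 KO, 498 ± 72.8 in UCP1 KO and 480 ± 142 in dKO (SD, n = 5). Its dKO libraries spread most, at 646, 291, 458, 413 and 590 CPM, and all 4 genotypes overlapped. Over the 4 comparisons and dKO against WT, the liver log2 fold changes of the 5 members ran from -0.38 to 0.47, with a lowest adjusted p of 0.391. In muscle, mean Cpt1b was 363 to 384 CPM, mean Crat 574 to 600.4 CPM, mean Cpt2 90.1 to 98.8 CPM and mean Cpt1a 17.3 to 17.7 CPM over the genotypes, and over the same comparisons the log2 fold changes ran from -0.16 to 0.13 with a lowest adjusted p of 0.697. The share of Cpt1b in CPT1 message was 97.5% in WT muscle, and the log2 ratio of Cpt1b to Cpt1a had means of 5.57 to 5.64. In liver this ratio did not pass in any of the 4 comparisons run (lowest exact permutation p = 0.183, adjusted p = 0.356), although without dKO replicate 5 it was 0.54 higher in dKO than in FGF21 KO (adjusted p = 0.0254).

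Around these enzymes, 30 genes of the same route were followed in 4 lists. In iWAT of UCP1 KO against WT, 6 of the 30 rose and 0 fell, beside 0.61% of all genes called, and for UCP1 KO against dKO 4 rose and 0 fell, beside 0.466%. Fits of only the 2 genotypes called 1 and 0 genes in all, and those without the libraries of high muscle score called 0 and 0, so at most 1 of these list calls remained there. Of the 14 enzymes of mitochondrial beta-oxidation, 4 rose, with a median log2 fold change of 1.38 over the list beside -0.03 over all genes tested. They were Hadhb (2.10, SE 0.39, adjusted p = 0.00716) and Hadha (1.93, SE 0.33, adjusted p = 0.00465), the subunits of the trifunctional protein, Acadvl (2.03, SE 0.37, adjusted p = 0.00728), the very long-chain acyl-CoA dehydrogenase, and Acaa2 (1.99, SE 0.36, adjusted p = 0.00657), a thiolase.

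The carnitine supply and shuttle list had 1 of 8 genes called, Slc25a20, the translocase between CPT1 and CPT2. It was at 125 to 565 CPM in UCP1 KO and 66.5 to 82.7 CPM in WT (log2 fold change 2.01, SE 0.34, adjusted p = 0.00447), while the list's median was 0.38. Of 5 acyl-CoA synthetases, which make the substrate of CPT1, Acsl5 rose (1.19, SE 0.20, adjusted p = 0.00357) and the median was 0.63. Of the 3 malonyl-CoA genes, 0 were called with edgeR, at a median of 1.22. With DESeq2 1 of them rose against WT and 3 against dKO, where it called 3.43% and 3.08% of all genes. Among the 11 libraries of low lymph node score, all 3 malonyl-CoA genes and 12 of the 14 beta-oxidation genes rose, beside 3.73% of all genes called in that fit. For dKO against FGF21 KO and FGF21 KO against WT 0 of the 30 were called, by edgeR and by DESeq2 alike.

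In BAT of UCP1 KO against WT, 29 of the 30 genes were tested, of which 3 rose and 4 fell, beside 25.2% of all genes called. With DESeq2 3 rose and 7 fell, beside 30.3% of all genes called. Beta-oxidation had 3 falls of 14, Acaa2 (-0.52, SE 0.08, adjusted p = 8.28e-05), Hadh (-0.43, SE 0.10, adjusted p = 0.00164), a 3-hydroxyacyl-CoA dehydrogenase, and Hadhb (-0.31, SE 0.08, adjusted p = 0.00752), with a list median of -0.30. Tmlhe, which starts carnitine synthesis, fell by 0.35 (SE 0.06, adjusted p = 0.000391). Under library totals alone Acaa2 was the 1 beta-oxidation gene still falling (-0.23, adjusted p = 0.00297), 2 others of that list rose, and Hadh, Hadhb and Tmlhe were at -0.15, -0.02 and -0.06 and not called. In that fit, which called 36.2% of all genes, 1 gene each of the carnitine supply and malonyl-CoA lists also rose.

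The acyl-CoA synthetases of BAT had 3 rises of 5. Under library totals alone 4 of 5 rose, in a fit that called 36.2% of all genes. Acsl4 rose by 0.85 (SE 0.18, adjusted p = 0.00125) and Acsl3 by 0.76 (SE 0.16, adjusted p = 0.000925). Acsl6 had 0 or 1 counts in each WT library and 6 to 40 counts in each UCP1 KO library. The mean of the UCP1 KO libraries was at least 3.69-fold higher than a floor of 3 counts per library, for counting error only. How the list genes stood with the macrophage score as a covariate, a fit that called 1.14% of all genes against WT, is not given here. In BAT, dKO against FGF21 KO had 1 rise and 2 falls among the 29 genes, beside 13.5% of all genes called, and 0 of 29 were called for UCP1 KO against dKO and for FGF21 KO against WT, again with 0 by DESeq2. In liver and muscle 0 of the 30 were called with edgeR in the 4 comparisons, and DESeq2 called 1, a fall in liver of UCP1 KO against WT.

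**Figure D5:**
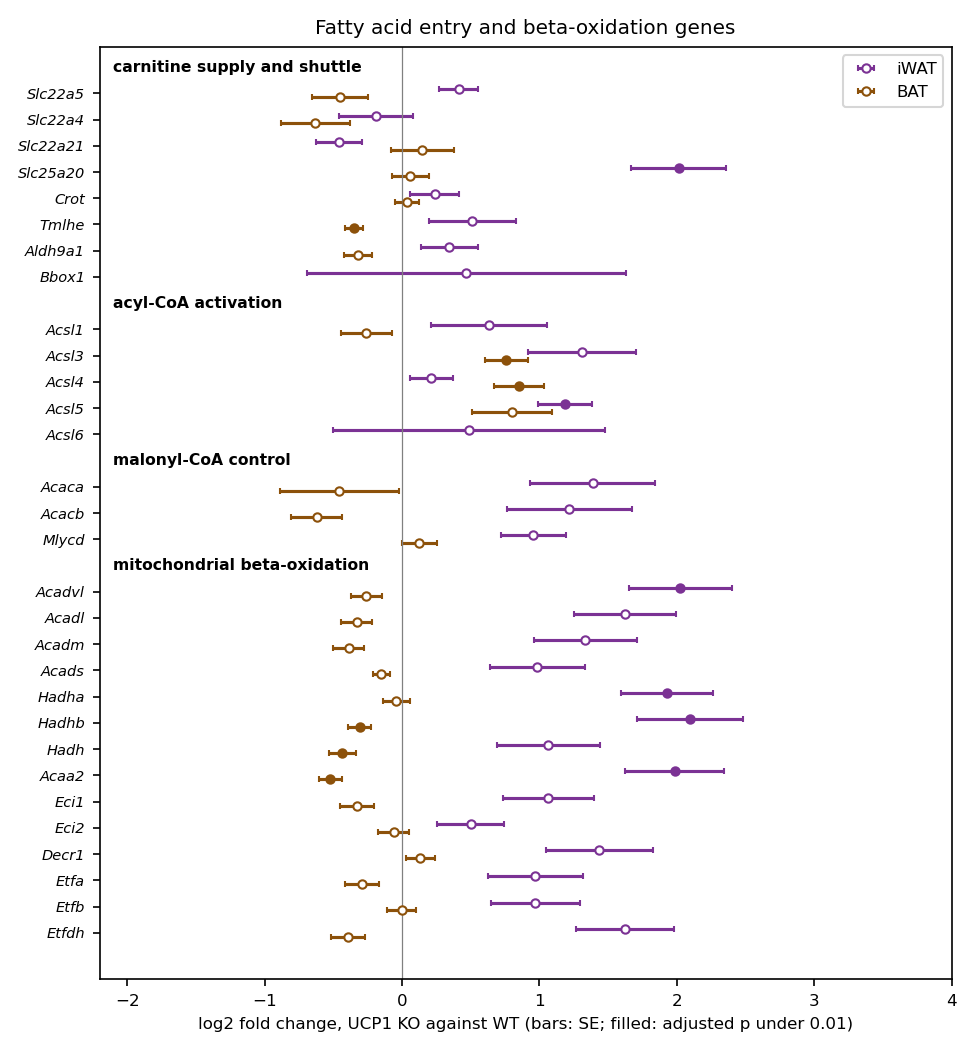
Log2 fold changes of the 30 genes of carnitine supply, acyl-CoA activation, malonyl-CoA control and beta-oxidation for UCP1 KO against WT in iWAT and BAT (points with bars of 1 standard error, filled for an adjusted p under 0.01). In iWAT the filled points are all to the right of 0, and in BAT the 3 filled beta-oxidation genes are to the left. Acsl6 in BAT, with 0 or 1 counts in WT, is beyond the axis and not drawn, and Bbox1 was not tested in BAT.

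By likeness over the 16 tissue and genotype means, among 13128 genes present in all tissues, Cpt1b ran most closely with Cox7a1 (r = 0.992), a cytochrome c oxidase subunit of muscle and brown fat, Pomgnt1 (0.990) and Pdha1 (0.989), a subunit of pyruvate dehydrogenase. Cpt1a was most like Gm4951 (0.995), Apol9b (0.994) and Fkbp11 (0.991), and Cpt1c most like Procr (0.995), Dsel (0.993) and Antxr1 (0.989). Cpt2 was most like Acads (0.995) and Hadh (0.992), both of beta-oxidation, and Gtf2ird1 (0.991). Crat was most like Pdk4 (0.997), which inhibits pyruvate dehydrogenase, Idh3a (0.995), of the citrate cycle, and Ldhb (0.993). These means mostly reflect differences between 4 tissues. Over the 20 iWAT libraries, Cpt1b was most like Cox7a1 (0.988), Chchd10 (0.980) and Phospho1 (0.978). Over the 20 BAT libraries, it was most like Smpd1 (0.943), Bcl2l13 (0.940) and Gpat4 (0.925). Cpt1a was there most like Prlr (0.944), Slit1 (0.928) and Etv5 (0.923). The libraries of a depot pool the 4 genotypes, so differences between genotypes enter these values.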

How the data were processed

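The authors prepared stranded poly(A) libraries, mapped them by STAR on mm10 (GRCm38) with UCSC known genes and counted reads with HTSeq-count. The deposited values are these read counts per gene symbol, not normalized, with a file for each library. Whether HTSeq-count was run by strand is not given in the sources used here. One row without a gene name, at most 3.42e-05% of a library, was left out. No pair of the 760 pairs of libraries within a tissue had identical counts. Cpt1c had 5 to 26 counts per library in liver and 42 to 83 in BAT, so that counting error limits it there.

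The paper's low-count filter was applied per tissue (maximum above 15 counts, sum above 75, at most 10 libraries at 0). Counts were scaled by TMM factors and tested with the quasi-likelihood F test of edgeR (version 4.0.16, limma 3.58.1, R 4.3.3), in 1 model per tissue over the 4 genotypes and in 1 model over the 20 WT libraries. P-values were adjusted by Benjamini-Hochberg over all genes tested, and genes with an adjusted p under 0.01 were called. Standard errors were derived from each log2 fold change with its F. DESeq2, the tool of the paper, served as another setting (version 1.42.0). Log2 CPM used a prior count of 2, and likeness is Pearson's r of log2 CPM. Isoform shares and the log2 ratio of Cpt1b to Cpt1a, with 0.5 counts added, used the exonic length of GENCODE gene models. The ratio was tested by two-sided exact permutation over libraries, in 16 tests at an adjusted p under 0.05. A score averages log2(CPM + 0.1) over a marker list, and promoter sequences are from RefSeq on GRCm38.

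The other settings were RLE factors, library totals alone, no filter, the filter over all 80 libraries, muscle and lymph node scores as covariates, only libraries of a low lymph node score, only the 2 genotypes compared, a threshold of 0.05, the longest transcript as length, 2 counts added, and each library left out in turn. The fit over both fat depots, the macrophage score and leaving out iWAT libraries of a high muscle score were chosen after seeing the data. All members are named. From the 4 lists, up to 4 genes each with the largest change among those called in UCP1 KO against WT are named, and per member the 3 most alike genes. The members and lists were chosen with earlier results of these data known. The edgeR code was tested on simulated counts with known changes and the same spread for every gene, which does not measure the spread of the real libraries.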

Additional observations from a re-analysis of the deposited data

Results flagged for a closer look

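The effect of UCP1 loss differed between the fat depots for both main isoforms, tested in 1 edgeR fit of the iWAT and BAT libraries that was chosen after seeing the data. For UCP1 KO against WT, the effect in iWAT minus that in BAT was 4.11 on the log2 scale for Cpt1b (SE 0.53, adjusted p = 3.42e-06) and -1.63 for Cpt1a (SE 0.30, adjusted p = 0.000327), in a test that called 7.48% of all genes. For UCP1 KO against dKO it was 3.88 for Cpt1b (SE 0.53, adjusted p = 3.65e-05) and -1.46 for Cpt1a (SE 0.30, adjusted p = 0.00327), with 1.64% of all genes called. Cpt1b rose in each UCP1 KO library of iWAT above all WT libraries of iWAT, and Cpt1a did so in BAT. Cpt2 (1.28, adjusted p = 0.0161) and Crat (0.97, adjusted p = 0.0608) did not pass for UCP1 KO against WT with edgeR, while DESeq2 called Cpt2 (1.31, adjusted p = 0.00815). The share of all genes called by DESeq2 there is not given here. Libraries of the same mouse may be present in both depots, but no label links them.

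A single library stood far from the others of its group in 2 of 80 groups tested (5 members in 16 groups), which is no more than chance, at about 1 in 20 groups, would give. Crat of BAT was highest in UCP1 KO replicate 1, at 1503 CPM against 946 to 1030 CPM in the other 4 libraries, with a gap of 0.815 of the range. Cpt1b of muscle was highest in FGF21 KO replicate 1, at 456 CPM against 352 to 379 CPM, with a gap of 0.721 of the range.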

How the results depend on the processing

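No paired analysis was possible because the labels and columns carry no replicate numbers that link libraries. The count of members called, 1 of 5 in iWAT for UCP1 KO against WT and 1 against dKO, was 3 and 1 with libraries of a low lymph node score (3.73% and 0.944% of all genes called), 1 and 3 with that score as a covariate (4.64% and 4.4%), 0 and 0 without libraries of a high skeletal muscle score (0 genes called in all), 0 and 0 in fits of only 2 genotypes (1 and 0 genes in all), and 0 to 1 in both when a library was left out. In BAT the 2 of 5 for UCP1 KO against WT became 1 with library totals alone (36.2% of all genes), 1 with 2 genotypes (16.5%), 1 with the muscle covariate (21.3%), 0 with the macrophage covariate (1.14%) and 3 at a threshold of 0.05 (40.7%), and was 1 to 2 with a library left out, and the 0 against dKO became 1 with DESeq2 (0.356%), without a filter (0.0535%) and at a threshold of 0.05 (0.216%), and was 0 to 1 with a library left out. The log2 ratio of Cpt1b to Cpt1a in iWAT was 4.92 against WT and 3.67 against dKO in libraries of a low lymph node score, at exact permutation adjusted p = 0.0914, since fewer libraries raise the smallest p. With a library left out, the ratio ranged in BAT from -2.08 to -1.50 (UCP1 KO against WT), -1.78 to -1.20 (UCP1 KO against dKO), -0.61 to -0.48 (dKO against FGF21 KO) and 0.18 to 0.30 (FGF21 KO against WT), and in liver from 0.21 to 0.54 (dKO against FGF21 KO). By the longest transcript, the Cpt1b share was 98.6% in WT BAT, 1.53% in WT liver (2.30% by exonic length) and 96.3% in WT muscle. DESeq2 called 11 and 12 of the 30 pathway genes in iWAT for UCP1 KO against WT and dKO (6 and 4 with edgeR), 8 in BAT for dKO against FGF21 KO (3) and 1 in liver for UCP1 KO against WT (0), where it called 3.43%, 3.08%, 19.5% and 0.777% of all genes (edgeR 0.61%, 0.466%, 13.5% and 0.0694%). Only Cpt2 in WT iWAT against liver reversed, from -0.87 to 0.21 (adjusted p = 0.0507), with library totals alone. The causes of these changes were not tested beyond what each setting leaves out.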
